A study of Mus musculus with 12 samples.

Results

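The imprinted genes H19, Igf2, Igf2r, Peg3, Meg3, Cdkn1c, Grb10, Mest, Plagl1 and Dlk1 were followed in B16F10 cells, an established mouse melanoma line, after treatment with a DNA methylation inhibitor, with sulforaphane, or with both. The members were taken by gene symbol, and all 10 are among the 24421 symbols of the count tables. Of these 10, 4 genes (H19, Igf2r, Mest and Plagl1) reached 1 CPM or more in 3 or more of the 12 libraries and were among the 11638 genes tested. CPM is the read count per 1000000 counts of the library after TMM scaling. The other 6 members stayed below that level and are described by their counts.

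An imprinted gene is transcribed mainly from the allele of 1 parent, and the choice is written as DNA methylation at CpG sites of an imprinting control region in the egg or sperm. The methylated allele is kept through cell division by DNA methyltransferase 1 and its partner Uhrf1, and drugs that trap this enzyme lower methylation as cells divide. Many imprinted genes act on growth, among them Igf2, a fetal growth factor, and Igf2r, the receptor that removes it. The deposited values are counts per gene and do not separate the alleles.

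The 12 libraries fall into 4 conditions with 3 replicates each. Control cells received DMSO (0.025% by the labels, where the methods give a lower percentage). By the methods SFN was dissolved in water, and DMSO in the SFN cells is not described. DAC cells received 5-aza-2'-deoxycytidine, a cytidine analog that traps DNA methyltransferases, at 25 nM for 72 h. SFN cells received sulforaphane, an isothiocyanate from cruciferous vegetables, for 48 h, and DAC+SFN cells received both drugs for the same times. For SFN the labels give 5 nM in the single treatment and 5 µM in the combination, while the methods describe 5 µM in both. By the labels, the comparison of DAC+SFN with SFN and the interaction therefore also differ in SFN dose. So does the DAC effect pooled over SFN, the mean of DAC against control and DAC+SFN against SFN. The methods describe 3 independent biological repeats of 1 cell line. The model holds the replicate number as a block. P-values therefore measure the spread that is left after differences between replicate numbers are removed. The library numbers of the labels run from 1 to 4 in replicate 1, from 5 to 8 in replicate 2 and from 11 to 14 in replicate 3, so processing of libraries in that order cannot be separated from the replicate.

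Total counts per library ranged from 15880957 to 27291436. In each library, 3 counts, the limit that a count of 0 allows, stood for 0.112 to 0.191 CPM, which covers counting error only. All 7 melanocytic markers were detected in every library, and their summed level was between 21417 and 30155 CPM. Of 8 markers of other cell types, Ptprc, Cd3e, Krt5, Krt14 and Epcam had 0 to 2 counts in each library, Pecam1 had 1 to 11 and Lyz2 had 25 to 129, while Col1a1 had 284 to 9514 counts. In these bulk samples, fewer cells that express a gene and less RNA per cell cannot be told apart.

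By the GENCODE M21 annotation of mm10, H19 is a long non-coding RNA gene on the minus strand at chr7:142575529-142578143, about 72.6 kb from Igf2 (chr7:142650766-142666816, minus strand). H19 also carries the hairpin of miR-675 in its first exon, and this microRNA is processed from the H19 transcript. Both mature strands are shown because they are the small RNA product of the member that varied most. They lie on the minus strand at chr7:142577112-142577133 (5p) and chr7:142577078-142577099 (3p), from RefSeq on GRCm38.p6. Capitals mark the seed, bases 2 to 8.
miR-675-5p: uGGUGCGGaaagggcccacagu
miR-675-3p: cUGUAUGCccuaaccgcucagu
The seeds differ between the strands. Mir675 was listed at 0 counts in all 12 libraries, but its 84 bases lie wholly within an H19 exon on the same strand, where a read cannot be assigned to 1 gene, so this 0 does not measure miR-675.

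The promoter windows of the other 3 tested members are shown because Mest and Igf2r rose in the same comparisons and because CpG sites are where DNA methyltransferases act. Each window runs from 250 bases before to 50 after an annotated start (RefSeq, GRCm38.p6), and capitals mark each CpG. Mest is on chromosome 6 (chr6:30737800-30738099, plus strand), Igf2r on chromosome 17 (chr17:12769657-12769956, minus strand) and Plagl1 on chromosome 10 (chr10:13090582-13090881, plus strand).
Mest: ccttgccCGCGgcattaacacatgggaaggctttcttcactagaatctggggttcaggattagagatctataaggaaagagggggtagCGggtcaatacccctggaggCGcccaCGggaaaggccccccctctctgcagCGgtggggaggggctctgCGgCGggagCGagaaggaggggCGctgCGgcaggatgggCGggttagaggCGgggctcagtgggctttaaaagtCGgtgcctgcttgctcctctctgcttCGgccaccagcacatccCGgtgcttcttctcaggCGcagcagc
Igf2r: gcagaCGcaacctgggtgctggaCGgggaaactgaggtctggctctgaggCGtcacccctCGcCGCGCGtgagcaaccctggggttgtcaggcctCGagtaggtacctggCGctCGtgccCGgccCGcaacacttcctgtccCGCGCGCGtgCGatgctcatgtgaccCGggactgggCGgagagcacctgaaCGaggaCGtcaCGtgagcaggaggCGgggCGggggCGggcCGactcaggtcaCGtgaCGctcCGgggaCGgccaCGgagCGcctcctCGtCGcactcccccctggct
Plagl1: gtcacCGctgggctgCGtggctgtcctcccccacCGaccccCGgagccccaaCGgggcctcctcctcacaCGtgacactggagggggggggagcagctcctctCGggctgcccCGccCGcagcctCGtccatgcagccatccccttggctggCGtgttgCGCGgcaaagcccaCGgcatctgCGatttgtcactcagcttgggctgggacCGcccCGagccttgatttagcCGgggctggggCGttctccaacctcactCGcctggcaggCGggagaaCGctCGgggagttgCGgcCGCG
The Igf2r window held 34 CpG sites, the Plagl1 window 26 and the Mest window 17, where the median of 32851 promoter windows of the same length was 7. Mest has 3 windows in the RefSeq table, and the others, which are not printed, are 1 that overlaps it with 17 CpG sites and 1 further upstream (chr6:30733256-30733555) with 8, more than in 51.4% of all windows. Fewer CpG sites than in these windows were found in 92.3% of all windows for Igf2r, in 83.1% for Plagl1 and in 68.6% for Mest. The antioxidant response motif TGACNNNGC, bound by Nrf2, the factor that SFN is known to release, was searched on both strands. It was absent from all windows of Mest, Igf2r and Plagl1 and was present in 1 of the 15 windows of 8 members, an Igf2 start, and in 12.4% of all windows. The RefSeq table held no window for H19 and Cdkn1c.

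In control cells, Plagl1 was the most abundant member per length. On the scale of CPM per kilobase of exon, control levels were 72.7 ± 4.38 (SD, n = 3) for Plagl1, a zinc finger transcription factor, and 25.1 ± 1.21 for Igf2r. They were 15.0 ± 1.02 for Mest, a protein of the alpha/beta hydrolase fold, and 1.71 ± 2.31 for H19. Cdkn1c, the CDK inhibitor p57, was at 0.222 ± 0.159. The libraries of Plagl1, Igf2r, Mest and H19 did not overlap between neighbours in this order, while those of H19 (0.0874 to 4.36) and Cdkn1c (0.106 to 0.403) overlapped. The order of Plagl1, Igf2r and Mest was kept without overlap in each of the 4 conditions.

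**Figure D1:**
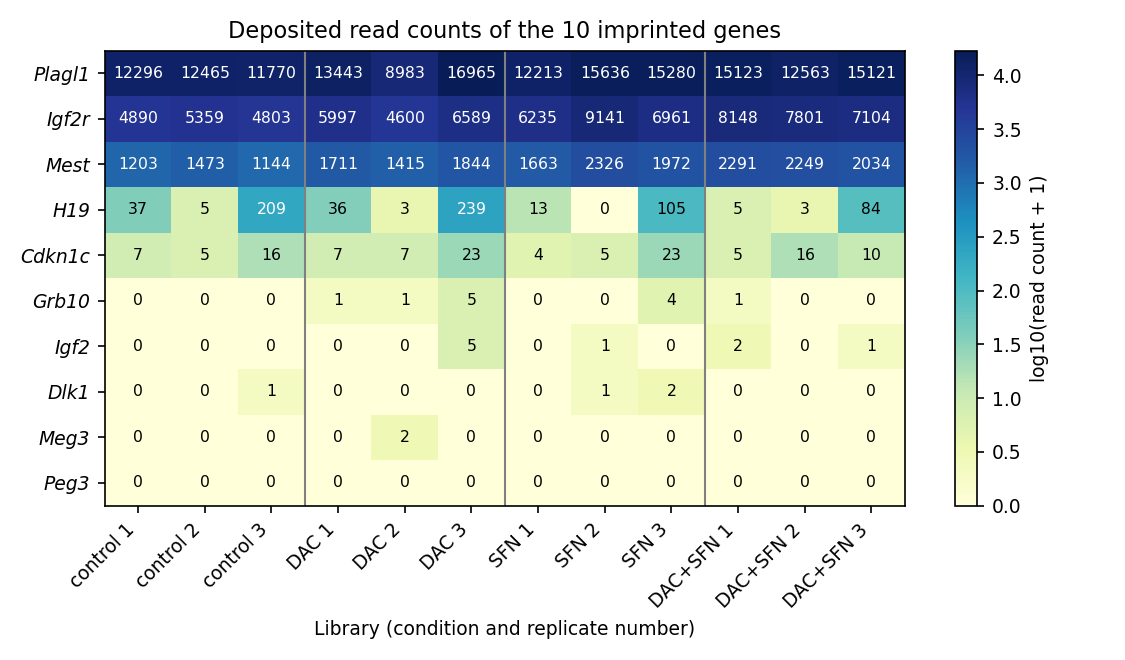
Read counts of the 10 members (vertical axis) in each of the 12 libraries (horizontal axis), coloured by log10(count + 1) and with the count printed. Plagl1, Igf2r and Mest had 1144 counts or more in every library, H19 ran from 0 to 239, and the lower 5 genes had at most 5.

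The paternally expressed growth factor gene Igf2, the reciprocal partner of H19, was close to absent. It had 9 counts over the 12 libraries, 5 of them in DAC replicate 3, 2 in DAC+SFN replicate 1, 1 in DAC+SFN replicate 3 and 1 in SFN replicate 2. No Igf2 count was found in the 3 control libraries. In addition, 62.8% of its annotated exon bases are shared with a read-through gene on the same strand, so the reads of both cannot be fully separated.

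Grb10, an adaptor that dampens insulin and IGF receptor signals, had 12 counts in all. These were 1, 1 and 5 in DAC replicates 1, 2 and 3, 4 in SFN replicate 3 and 1 in DAC+SFN replicate 1, and control had 0. Dlk1, a Notch-like membrane protein, had 4 counts in 3 libraries, and Meg3, the maternal non-coding RNA of the same domain, had 2 counts in DAC replicate 2 only. Peg3, a zinc finger protein, had 0 counts in every library. With at most 5 counts in any library, a difference between conditions was not detectable for these 5 genes at this depth.

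Cdkn1c was the only untested member with counts in all 12 libraries. Control replicates 1, 2 and 3 had 7, 5 and 16 counts, the DAC replicates 7, 7 and 23, the SFN replicates 4, 5 and 23, and the DAC+SFN replicates 5, 16 and 10. The conditions overlapped, and its highest level was 0.940 CPM, under the filter. The counting settings for strand are not given in the sources used here, and 30.7% of its exon bases are also covered by an annotated antisense gene. Without the low count filter in edgeR, its adjusted p was 0.986 for DAC, 1.00 for SFN and 0.893 for DAC+SFN compared to control.

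H19, the maternally expressed RNA of the H19 and Igf2 domain, fell with SFN and with DAC+SFN compared to control, and its level differed far more between replicate numbers than between treatments. Control replicates 1, 2 and 3 had 37, 5 and 209 counts of H19, the DAC replicates 36, 3 and 239, the SFN replicates 13, 0 and 105, and the DAC+SFN replicates 5, 3 and 84. On the CPM scale, control was at 1.70, 0.215 and 10.7, DAC at 1.49, 0.191 and 8.95, SFN at 0.612, 0 and 4.29, and DAC+SFN at 0.228, 0.144 and 3.92. Replicate 3 was highest and replicate 2 lowest in each condition, and every treatment overlapped control when the replicate number was ignored.

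With SFN, the fitted log2 fold change of H19 was -1.43 (SE 0.30, adjusted p = 0.00541 in edgeR's quasi-likelihood test with Benjamini-Hochberg adjustment), a 2.70-fold decrease. SFN replicate 1 held 35.9% of the CPM of control replicate 1 (exact 95% interval of the counts 17.5 to 69.2%), and SFN replicate 3 held 40.0% of control replicate 3 (31.3 to 50.8%). In replicate 2 the counts were 0 with SFN and 5 in control, which leaves an interval of 0 to 95.4%. H19 was lower with SFN in 3 of 3 replicates. Without SFN replicate 3, the log2 fold change was -1.62 and the adjusted p was 0.0738. With no replicate block in the model, it was -1.34 with an adjusted p of 0.711, so the call rests on comparing libraries of the same replicate number.

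With DAC+SFN, H19 changed by -1.65 on the log2 scale (SE 0.31, adjusted p = 0.00109 in edgeR), a 3.14-fold decrease that was seen in 3 of 3 replicates. DAC+SFN libraries held 13.4% (4.10 to 34.1%) of the CPM of control in replicate 1 and 36.5% (28.0 to 47.3%) in replicate 3. In replicate 2, 3 counts against 5 gave 66.8% with an interval of 10.4 to 343%. Without DAC+SFN replicate 3, the log2 fold change was -2.29 (adjusted p = 0.00403), and with no replicate block it was -1.54 (adjusted p = 0.549). Compared to DAC alone, H19 was also lower with DAC+SFN, at -1.41 (SE 0.31, adjusted p = 0.00735). Without DAC+SFN replicate 3 this value was -2.06 (adjusted p = 0.0157), without the 4 libraries of replicate 1 it was -1.14 (adjusted p = 0.126), and with no replicate block it was -1.35 (adjusted p = 0.701). These comparisons share the DAC+SFN or control libraries.

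The demethylating drug on its own left H19 within the spread between replicates. The log2 fold change with DAC was -0.24 (95% interval -0.82 to 0.35, adjusted p = 0.818 in edgeR), and the libraries held 87.6%, 89.0% and 83.4% of the CPM of control in replicates 1, 2 and 3. Compared to SFN, DAC+SFN gave -0.22 (-0.93 to 0.49, adjusted p = 0.782). The DAC effect pooled over SFN was -0.23 (SE 0.22, adjusted p = 0.594), and the interaction of DAC and SFN was 0.02 (-0.89 to 0.93, adjusted p = 1.00). These intervals do not show that DAC leaves H19 unaltered.

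**Figure D2:**
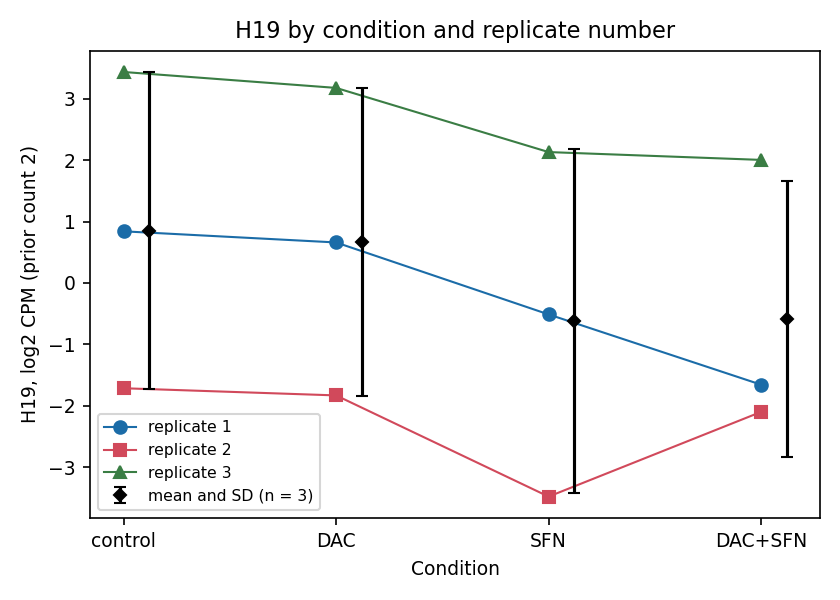
H19 in log2 CPM (vertical axis, prior count 2, so that a count of 0 has a finite value) by condition (horizontal axis), with 1 line per replicate number and the mean and SD (n = 3) in black. Replicate 3 lies above replicate 1 and replicate 1 above replicate 2 in each condition, and all 3 lines are lower with SFN than in control.

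The differences between replicate numbers were among the largest of the data. In control cells, H19 of replicate 3 was 49.9 times that of replicate 2, and with DAC it was 46.8 times. Over the 4 conditions, the fitted log2 difference was -2.86 (SE 0.45, adjusted p = 0.000379 in edgeR) for replicate 2 against 1, 2.83 (SE 0.23, adjusted p = 8.60e-06) for 3 against 1, and 5.69 (SE 0.33, adjusted p = 7.53e-08) for 3 against 2. By size, these ranked as number 4, 2 and 2 of the 11638 genes. The replicate number took 86.7% of the sum of squares of H19 on the log2 CPM scale and the condition 9.82%, where the medians over all genes tested were 31.3% and 33.8%. H19 reached 1 CPM in 6 libraries, 4 of them of replicate 3, so it was tested because of its high replicate. Its ranks and p-values for replicate 3 use the same libraries and are a description.

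Among the 4 tested members, H19 was the only one past an adjusted p under 0.05 and a fold change above 2 in the replicate comparisons. H19 was admitted through replicate 3, so its calls for that replicate are not independent of the low count filter. All genes passed both in 1.58% (2 against 1), 0.971% (3 against 1) and 2.14% (3 against 2) of cases. By the adjusted p alone, 2, 1 and 3 of the 4 members passed, against 26.1%, 6.56% and 28.8% of all genes. Mest differed by 0.19 (adjusted p = 0.0280) for 2 against 1 and by -0.20 (adjusted p = 0.0189) for 3 against 2, and Plagl1 by 0.16 (adjusted p = 0.0224) for 3 against 2. Igf2r passed in none of the 3. Unlike those of H19, these small differences rest on single libraries. The Mest call for 2 against 1 ended without control replicate 1, DAC replicate 1 or 2 or SFN replicate 1 (0.13 to 0.18, adjusted p of 0.0833 to 0.135), and that for 3 against 2 without DAC replicate 2 or 3 or DAC+SFN replicate 3 (-0.14 to -0.17, adjusted p of 0.0535 to 0.0980). The Plagl1 call ended without control replicate 2, DAC replicate 3 or DAC+SFN replicate 2 (0.13 to 0.15, adjusted p of 0.0544 to 0.0732). Igf2r passed without control replicate 2 (0.19 for 2 against 1, adjusted p = 0.0422, and -0.21 for 3 against 2, adjusted p = 0.0265) and without control replicate 3 (-0.21 for 3 against 2, adjusted p = 0.0192).

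The fibroblast collagen gene Col1a1, which is on the list of other cell type markers, moved with the replicate number in the same order as H19. Its counts were 1307 to 1984 in the 4 libraries of replicate 1, 284 to 503 in replicate 2 and 5261 to 9514 in replicate 3. The summed level of the 8 markers was 63.1 to 93.0 CPM in replicate 1, 17.0 to 29.7 in replicate 2 and 249 to 358 in replicate 3, and without Col1a1 it was 1.43 to 2.64, 1.33 to 5.65 and 2.06 to 4.09. With DAC+SFN the macrophage lysozyme gene Lyz2, at 25 to 129 counts, was 1.02 higher than in control on the log2 scale (adjusted p = 0.0289 in edgeR). With SFN the highest value of the 2 tested markers was 1.00. There 0 passed the adjusted p in edgeR, and DESeq2 called 1. The part of other cells in the values of H19 and the other members was not tested. The summed melanocytic markers were highest in replicate 1 (28048 to 30155 CPM), with 21417 to 26572 in replicate 2 and 22071 to 24420 in replicate 3. By condition, the summed level of the 8 markers spanned 17.0 to 314 CPM in control, 21.2 to 358 with DAC, 21.6 to 249 with SFN and 29.7 to 249 with DAC+SFN, ranges that overlapped.

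The 5 tested genes whose log2 CPM followed H19 most closely over the 12 libraries were Fstl1 (Pearson r = 0.975), Marcks (0.958), Irf1 (0.958), Map3k7cl (0.952) and Cdkn1b (0.949). These libraries share conditions and replicate numbers, so the values are a description. Fstl1, a secreted follistatin-like glycoprotein, was at 28.7 to 49.1 CPM in replicate 1, 22.7 to 29.9 in replicate 2 and 61.5 to 71.3 in replicate 3. Cdkn1b, the CDK inhibitor p27, was at 52.3 to 83.4, 41.2 to 54.3 and 69.4 to 97.7 CPM, and Irf1, an interferon response factor, at 17.3 to 23.4, 15.6 to 18.8 and 24.9 to 32.4. All libraries of replicate 3 were above the other 8 for Fstl1 and Irf1, while the ranges of replicates 1 and 2 overlapped for these 3 genes. Marcks was at 105 to 168, 100 to 115 and 185 to 212 CPM. Map3k7cl was at 0.518 to 1.66, 0.144 to 0.319 and 2.04 to 5.32 CPM, without overlap between replicates and in the order of H19. Its counts were 3 to 142. With SFN, Map3k7cl changed by -1.32 on the log2 scale (adjusted p = 0.00775 in edgeR) and Cdkn1b by -0.46 (0.000335). Fstl1 changed by -0.39 (0.0181), Marcks by -0.27 (0.0429) and Irf1 by -0.13 (0.477).

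Igf2r, the receptor that carries IGF2 and mannose 6-phosphate tagged enzymes to lysosomes, rose with SFN and with the combination compared to control. Control replicates 1, 2 and 3 were at 225, 231 and 247 CPM, the DAC replicates at 248, 294 and 247, the SFN replicates at 293, 344 and 285, and the DAC+SFN replicates at 371, 374 and 332. The SFN and DAC+SFN libraries were all above control, and the lowest DAC library (246.8) lay only just above the highest control library (246.7). The log2 fold change was 0.39 (SE 0.07, adjusted p = 0.00201 in edgeR) with SFN and 0.61 (SE 0.07, adjusted p = 2.48e-05) with DAC+SFN, or 1.31-fold and 1.53-fold. With DAC it was 0.16 (95% interval 0.01 to 0.31, adjusted p = 0.448).

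Adding SFN to DAC raised Igf2r by 0.45 (SE 0.07, adjusted p = 0.000745 in edgeR), while adding DAC to SFN gave 0.23 (0.08 to 0.37, adjusted p = 0.103). The latter passed with DESeq2 (adjusted p = 0.0469), with only the groups compared (0.00583) and without DAC+SFN replicate 3 (0.0476). The DAC effect pooled over SFN was 0.19 (SE 0.05, adjusted p = 0.0345). This call ended when control replicate 1 or 2, DAC replicate 2 or 3, SFN replicate 1 or 3 or DAC+SFN replicate 1 or 2 was left out, with values of 0.16 to 0.21 and adjusted p of 0.0543 to 0.130. It also ended without the 4 libraries of replicate 1 (0.17, adjusted p = 0.337) or replicate 2 (0.18, 0.162). The SFN call was lost without the 4 libraries of replicate 2 (0.29, adjusted p = 0.0707) and with no replicate block (0.39, adjusted p = 0.0997). The call against DAC was lost without the 4 libraries of replicate 1 (0.39, adjusted p = 0.0672) and with no replicate block (0.45, adjusted p = 0.0842).

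Mest rose with each treatment, and it was 1 of the 21 genes that passed the adjusted p with DAC alone. The control libraries were at 55.3, 63.4 and 58.8 CPM in replicates 1, 2 and 3, the DAC libraries at 70.8, 90.3 and 69.1, the SFN libraries at 78.2, 87.5 and 80.6, and the DAC+SFN libraries at 104, 108 and 94.98. All treated libraries were above the 3 control libraries, and all DAC+SFN libraries were above those of the single treatments. The log2 fold changes were 0.37 (SE 0.07, adjusted p = 0.0441 in edgeR) with DAC, 0.47 (SE 0.07, adjusted p = 0.000349) with SFN and 0.79 (SE 0.07, adjusted p = 2.44e-06) with DAC+SFN, or 1.29-fold, 1.39-fold and 1.73-fold.

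The combination was also above each single treatment, by 0.42 against DAC (SE 0.07, adjusted p = 0.000848 in edgeR) and by 0.32 against SFN (SE 0.07, adjusted p = 0.0339). The DAC effect pooled over SFN was 0.34 (SE 0.05, adjusted p = 0.00264). Mest was higher in 3 of 3 replicates in each of the 5 comparisons between conditions. The call with DAC alone was weak: leaving out any 1 control, DAC or SFN library or DAC+SFN replicate 2 moved the adjusted p to between 0.0508 and 0.286, with log2 fold changes of 0.29 to 0.41. The calls against DAC (0.36, adjusted p = 0.0679) and for the pooled DAC effect (0.32, adjusted p = 0.0936) ended without the 4 libraries of replicate 1. The call against SFN ended without control replicate 1, any 1 SFN library or DAC+SFN replicate 1 (0.26 to 0.35, adjusted p of 0.0508 to 0.230). It also ended without the 4 libraries of replicate 1 (0.27, adjusted p = 0.557) or replicate 2 (0.32, 0.109). The call with DAC alone ended in the same cases (0.37, adjusted p = 0.372, and 0.30, 0.628). With no replicate block, Mest passed with DAC+SFN (adjusted p = 0.00479) and did not pass with SFN (0.0782), with DAC (1.00), against DAC (0.0921), against SFN (0.504) or for the pooled DAC effect (0.179). Mest overlaps 23.1% of its exon bases with Copg2 on the other strand, and Copg2 was at 154 to 175 CPM with no call in any treatment comparison.

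**Figure D3:**
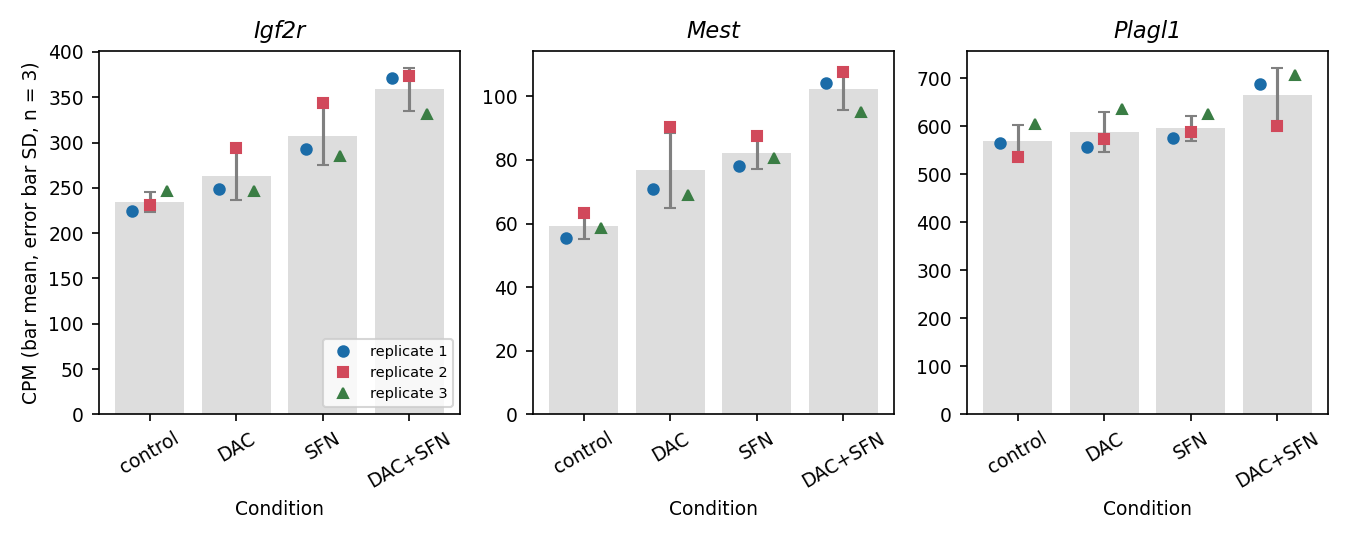
CPM (vertical axes, from 0) of Igf2r, Mest and Plagl1 by condition (horizontal axes), with points for the 3 replicates, bars for means and error bars for SD (n = 3). Igf2r, Mest and Plagl1 were each highest with DAC+SFN in 3 of 3 replicates, and the Plagl1 conditions overlapped when the replicate number was ignored.

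Plagl1, a paternally expressed factor that regulates other imprinted genes, had the smallest fold changes against control of the tested members. The control libraries were at 566, 536 and 604 CPM in replicates 1, 2 and 3, the DAC libraries at 557, 573 and 636, the SFN libraries at 575, 588 and 625, and the DAC+SFN libraries at 688, 602 and 706. Each treatment overlapped control when the replicate number was ignored, and DAC+SFN was higher than control in 3 of 3 replicates. The log2 fold change with DAC+SFN was 0.23 (SE 0.06, adjusted p = 0.00656 in edgeR), a 1.17-fold increase. With DAC it was 0.05 (95% interval -0.07 to 0.17, adjusted p = 0.815) and with SFN 0.07 (-0.05 to 0.19, adjusted p = 0.446). The DAC+SFN call was lost when only the groups compared were fitted (adjusted p = 0.0673), without the 4 libraries of replicate 1 (0.0891) and with no replicate block (0.0948).

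Against DAC, Plagl1 was 0.18 higher with DAC+SFN (SE 0.06, adjusted p = 0.0416 in edgeR). That call ended when control replicate 1 or 3, any 1 DAC or SFN library or DAC+SFN replicate 1 or 3 was left out (0.13 to 0.20, adjusted p of 0.0553 to 0.211). It also ended without the 4 libraries of replicate 1, 2 or 3 (0.11 to 0.22, adjusted p of 0.0607 to 0.432). Against SFN the difference was 0.16 (0.04 to 0.28, adjusted p = 0.151), and the pooled DAC effect was 0.10 (SE 0.04, adjusted p = 0.148).

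Counted over the 4 tested members, H19 alone was past an adjusted p under 0.05 and a 2-fold change with SFN (all genes: 1.28%), with DAC+SFN (2.66%) and with DAC+SFN against DAC (0.928%). By the adjusted p alone, 3 of 4 members passed with SFN (13.9% of all genes), 4 of 4 with DAC+SFN (31.6%) and 4 of 4 against DAC (16.1%). With DAC, 1 of 4 passed the adjusted p (0.180%) and 0 passed both thresholds (0.0344%), and DESeq2 gave the same numbers for the members. An unadjusted p under 0.05 was reached by 2 members and by 1170 of all 11638 genes. DESeq2 called 83 of all genes by the adjusted p. Against SFN, 1 of 4 passed the adjusted p (1.61%) and 0 passed both thresholds (0.112%). An unadjusted p under 0.05 was reached by 3 members and by 2072 of all genes. DESeq2 called 2 members and 410 of all genes by the adjusted p. For the pooled DAC effect, 2 passed the adjusted p (5.22%) and 0 both (0.172%), with 3 at an unadjusted p under 0.05 and 2 by the adjusted p in DESeq2. Over all genes, 2407 were at that unadjusted p and 749 passed in DESeq2. In the interaction 0 members and 0% of all genes passed either rule in edgeR, and 0 members were at an unadjusted p under 0.05 or called by DESeq2. Over all genes, 683 were at that unadjusted p and 0 were called by DESeq2. The interaction was 0.07 (95% interval -0.14 to 0.27) for Igf2r, -0.05 (-0.25 to 0.15) for Mest and 0.11 (-0.06 to 0.28) for Plagl1 on the log2 scale.

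**Figure D4:**
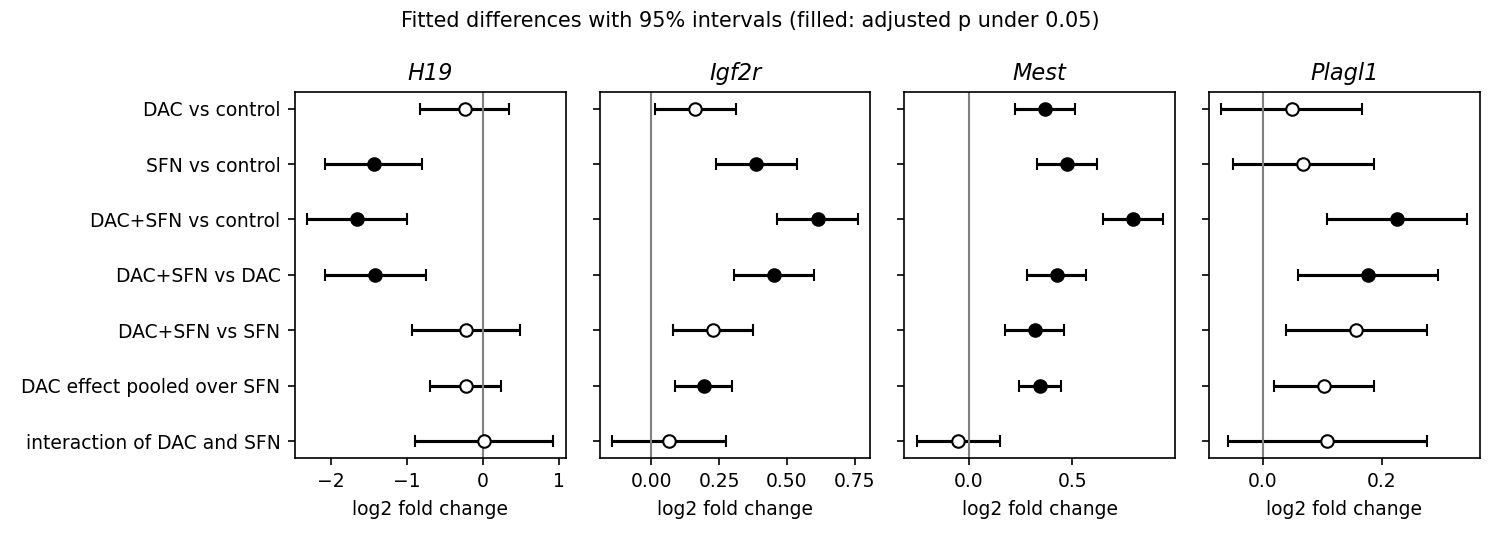
Fitted log2 fold changes (horizontal axes, with different ranges per gene) of the 4 tested members in the 7 treatment comparisons (vertical axis), with 95% intervals and filled points for an adjusted p under 0.05. H19 lies below 0 where SFN was added, from -1.41 to -1.65, and Mest lies above 0 in every comparison except the interaction.

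Of 69 other imprinted genes found in the tables, 31 were tested, 14 had some counts below the filter and 24 had 0 counts in all 12 libraries. The most abundant were Gnas, which encodes the stimulatory G protein alpha subunit (mean 1202 CPM), the tetraspanin gene Cd81 (424), the cholesterol synthesis gene Dhcr7 (198), the retrotransposon-derived Peg10 (166) and the coatomer gene Copg2 (165). Genes at 0 included Snrpn, Ndn and Magel2 of the Prader-Willi region, and Zim1, Klf14, Dio3 and Ins2, neighbours of Peg3, Mest, Dlk1 and Igf2.

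With SFN, 8 of the 31 rose and 2 fell by the adjusted p, where 8.27% of all genes rose and 5.65% fell. The median log2 fold change of the 31 was 0.10 and that of all genes 0.00. With DAC+SFN, 11 rose and 2 fell, against 17.0% and 14.7% of all genes (median 0.15 against 0.01). Compared to DAC, 11 rose and 1 fell with DAC+SFN, against 9.55% and 6.60% (median 0.07 against 0.00). Cd81 was 0.40 with SFN (adjusted p = 0.000337 in edgeR) and 0.48 with DAC+SFN (3.21e-05). Herc3 was 0.46 (0.000690) and 0.56 (6.70e-05), and Dhcr7 fell by 0.35 (0.00229) and 0.34 (0.00129) on the log2 scale. Inpp5f, Blcap, Pon3, Osbpl5 and Slc22a18 also rose in both comparisons, by 0.23 to 0.43 with SFN and by 0.30 to 0.67 with DAC+SFN. Tssc4 rose (0.26) and Phactr2, a neighbour of Plagl1, fell by 0.26 with SFN, and H13 (0.30), Trappc9 (0.27) and Tnfrsf23 (0.61) rose and Commd1 fell by 0.27 with DAC+SFN. Ppp1r9a rose by 0.24 with DAC+SFN compared to DAC.

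The non-coding RNA Kcnq1ot1, which silences the Cdkn1c domain on the paternal chromosome, was alone among the 31 past both thresholds in the treatment comparisons. It passed both with DAC+SFN compared to control, as did 2.66% of all genes. It had 64, 62 and 98 counts in control replicates 1, 2 and 3, while the DAC replicates had 107, 86 and 152, the SFN replicates 92, 132 and 130, and the DAC+SFN replicates 172, 144 and 168. All DAC+SFN libraries were above the other 9 on the CPM scale (6.90 to 7.85 against 2.67 to 5.69). The log2 fold change with DAC+SFN was 1.12 (SE 0.18, adjusted p = 0.000335 in edgeR), and it was 0.95 without control replicate 2 and 0.98 without DAC+SFN replicate 1. Without the 4 libraries of replicate 1 or of replicate 2 it was 0.97 or 1.00, also under a 2-fold change, and the adjusted p passed in all 4 cases. The DAC effect pooled over SFN was 0.60 (SE 0.12, adjusted p = 0.0156), and it did not pass without control replicate 1 (0.0541), SFN replicate 1 (0.0580) or SFN replicate 3 (0.0668), without the 4 libraries of replicate 1 (0.244) or replicate 2 (0.118), or with no replicate block (0.242). Cd81 (0.16, adjusted p = 0.0347) was the other imprinted gene past the adjusted p for the pooled DAC effect. With DAC alone 0 of the 31 passed in edgeR, 7 had an unadjusted p under 0.05 and DESeq2 called 1. Over all 11638 genes these counts were 21, 1170 and 83. Compared to SFN, 0 passed with DAC+SFN in edgeR, 7 had an unadjusted p under 0.05 and DESeq2 called 2. The counts over all genes were 187, 2072 and 410.

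Several genes that lie beside a member at the same locus had reads. Slc22a18, next to Cdkn1c, rose by 0.42 with SFN (adjusted p = 0.0170 in edgeR) and by 0.56 with DAC+SFN (0.00126). Phlda2, a placental growth regulator beyond it on chromosome 7, had 38 to 53 counts in replicate 3, 11 to 17 in replicate 2 and 11 to 35 in replicate 1. Its log2 difference was 1.16 for replicate 3 against 1 (adjusted p = 0.0119) and 1.64 for 3 against 2 (0.000486), the direction of H19. The libraries of replicate 3 alone met the low count filter, so these tests use the libraries that admitted Phlda2. Of all genes, 0.971% and 2.14% passed both thresholds in these comparisons. The DAC+SFN libraries of Phlda2 were 0.74 above control on the log2 scale and did not pass (adjusted p = 0.0758). Rtl1 and Rian, from the Dlk1 and Meg3 domain, were below the filter. Rtl1 had 7 to 20 counts in replicate 3 and 0 to 2 in the other 8 libraries, and Rian had 3 to 9 in replicate 3 and 0 to 2 elsewhere. Airn, the antisense RNA of Igf2r, was at 0.731 to 2.15 CPM and passed in none of the treatment comparisons, while its other targets Slc22a2 and Slc22a3 had at most 5 counts. Mirg, Ascl2, Usp29, Ddc and Cobl had at most 10 counts.

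**Figure D5:**
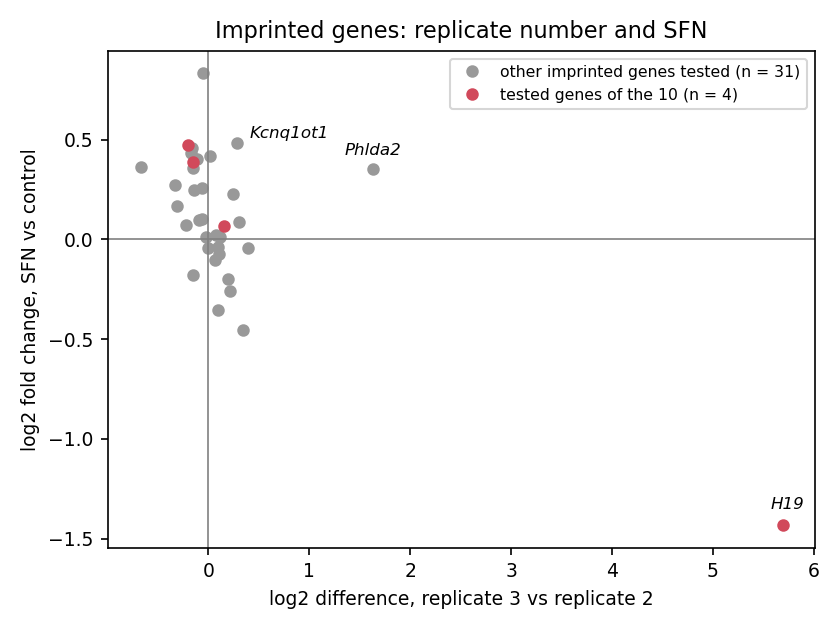
Log2 difference of replicate 3 against replicate 2 (horizontal axis) and log2 fold change of SFN against control (vertical axis) for the 4 tested members (red) and the 31 other imprinted genes tested (grey). H19 stands at 5.69 and -1.43, Phlda2 is next on the horizontal axis at 1.64, and the other genes lie within 1 unit of 0 on both axes.

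Several genes that copy, set or remove DNA methylation were lower after the combination. Of 17 tested genes of this list, 0 passed with DAC in edgeR (2 at an unadjusted p under 0.05, 0 by DESeq2), 4 fell and 0 rose with SFN (5.65% and 8.27% of all genes), and 8 fell and 1 rose with DAC+SFN (14.7% and 17.0%). With DAC, 0.180% of all genes passed in edgeR, 1170 had an unadjusted p under 0.05 and DESeq2 called 83. Uhrf1, which recruits Dnmt1 to newly copied DNA, changed by -0.38 with DAC+SFN (SE 0.07, adjusted p = 0.000748), Dnmt3a, a de novo methyltransferase, by -0.24 (0.00773), and the dioxygenase Tet1 by -0.60 (0.00827). Rbl1, a pocket protein of the cell cycle, was at -0.54 (0.000177) and the chromatin remodeller Hells at -0.36 (0.00914). Dnmt1 itself was at -0.17 (adjusted p = 0.0299). With SFN the genes that fell were Tet3 (-0.40), Dnmt3a (-0.23), Tet1 (-0.52) and Dnmt3b (-0.56). Compared to DAC, 4 fell and 1 rose with DAC+SFN (6.60% and 9.55% of all genes). The median of the 17 was -0.17 with DAC+SFN and -0.10 with SFN, where that of all genes was 0.01 and 0.00.

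Genes of the IGF pathway, in which Igf2r removes the ligand, rose in part. Of 9 tested, 4 rose and 0 fell with SFN (8.27% and 5.65% of all genes), and 6 rose and 0 fell with DAC+SFN (17.0% and 14.7%). With DAC alone and for DAC+SFN against DAC, 0 of the 9 passed in edgeR or DESeq2, with 4 and 2 at an unadjusted p under 0.05. Of all genes, 0.180% and 16.1% passed in edgeR, and 1170 and 3553 were at that unadjusted p. Igf1r, the signalling receptor, was at 0.42 with SFN (adjusted p = 0.0104 in edgeR) and 0.41 with DAC+SFN (0.00553), and the docking protein gene Irs1 at 0.50 (0.0437) and 0.68 (0.00447). The binding protein genes Igfbp4 (0.30 and 0.26) and Igfbp7 (0.78 and 0.69) also rose in both comparisons, and Irs2 (0.46) and Igf2bp3 (0.49) passed with DAC+SFN. Of 5 tested genes known as partners of H19 or of the microRNA let-7, which H19 can bind, 1 rose with SFN (8.27% of all genes), and 2 rose and 1 fell with DAC+SFN (17.0% and 14.7%). The let-7 target Hmga2 rose by 0.94 with SFN (adjusted p = 1.45e-05) and by 1.00 with DAC+SFN (2.95e-06). Ezh2, the Polycomb methyltransferase, was at -0.32 with DAC+SFN (0.00676). Lin28b, which blocks let-7 processing, was at 8.19 to 12.1 CPM and passed in no treatment comparison, and Lin28a had 0 counts.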

How the data were processed

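RNA from 12 B16F10 samples was sequenced, with 3 replicates in each of 4 conditions. The authors deposited raw read counts per gene symbol for each sample, and no normalization had been applied. Per the submitters' processing notes and the methods, reads were checked with FastQC 0.11.7, trimmed with Trimmomatic 0.38, aligned to mm10 with TopHat2 2.1.1 and counted with HTSeq. The annotation and the strand setting of the counting are not given in the sources used here, so overlapping genes may share reads.

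The 11638 of 24421 genes that reached 1 CPM or more in 3 or more of 12 libraries were scaled by TMM and tested two-sided with glmQLFTest of edgeR 4.0.16 (legacy fit, R 4.3.3), with all 12 samples in 1 model and the replicate number as a block. P-values were adjusted by Benjamini-Hochberg over all genes tested. A gene passed at an adjusted p under 0.05, and the stricter rule added a fold change above 2. Fold changes carry a prior count of 0.125, and an SE was taken as the ratio of the log2 fold change to the root of F. The replicate numbers of the labels pair the samples: deviations of same-numbered samples from their condition means correlated in all 18 pairs (r of 0.270 to 0.732). Replicates were no copies of each other, with a chi-square per gene of 13.2 to 36.0. Exact intervals of H19 ratios are at 95% and treat reads as independent.

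The members and the gene lists were chosen with earlier results of these data known. Named are all 10 members, imprinted genes that share a domain with a member, other listed genes with an adjusted p under 0.05 and the same direction in all 3 replicates (at most 5 for each comparison in the lists of pathways), the 5 most abundant imprinted genes and the 5 genes most correlated with H19. Zfp264 was not analysed here. The alternatives were DESeq2 1.42.0 (size factors and Wald test), other low count filters, the version 4 fit, a prior count of 2, no replicate block, only the groups compared, the adjusted p alone and each library left out. Leaving out all 4 libraries of a replicate number was chosen after seeing the data. The fit was tested on simulated data. Positions came from GENCODE M21, and figures were drawn with matplotlib 3.10.9.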

Additional observations from a re-analysis of the deposited data

How the results depend on the processing

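The 4 tested members gave 40 log2 fold changes and 846 alternative values of them, of which 745 kept direction and side of the threshold, 75 lost the adjusted p, 6 gained it and 20 changed sign. Leaving out libraries, or the libraries of 1 replicate number, changed the sign for H19 against SFN (-0.88 to 0.015), for the interaction of H19 (-0.65 to 0.26), Igf2r (-0.023 to 0.21) and Mest (-0.11 to 0.029), and for replicate 3 against 1 of Igf2r (-0.083 to 0.025) and Mest (-0.037 to 0.034). None of these passed the test in any alternative. With no replicate block, the interaction of H19 was -0.00699. The members past an adjusted p under 0.05 and a 2-fold change numbered 1 with SFN, with DAC+SFN and for DAC+SFN against DAC, and each became 0 with no replicate block, where the spread between repeats enters the error. Each also became 0, as did the 3 replicate comparisons, when 10 counts were required in every library, because H19 was then not tested. With libraries left out, the count was 0 to 1 with SFN, with DAC+SFN, for DAC+SFN against DAC and for replicate 2 against 1, and without replicate 3 H19 was below the filter. By the adjusted p alone, the counts were 1 with DAC, 3 with SFN, 4 with DAC+SFN, 4 against DAC, 1 against SFN, 2 for the pooled DAC effect, 2 for replicate 2 against 1 and 3 for replicate 3 against 2. With no low count filter, replicate 3 against 1 gave 2. The size factors and the Wald test of DESeq2 left the counts past both thresholds as they were, and the Wald test gave 2 instead of 1 against SFN by the adjusted p alone. The call of Mest with DAC was lost in 13 of 23 alternatives (adjusted p of 0.000501 to 1.00), that of Plagl1 against DAC in 16 of 23, and that of Igf2r for the pooled DAC effect in 11 of 22. Depth limits Igf2, Grb10, Dlk1, Meg3, Peg3, Cdkn1c and H19 in replicate 2.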

Other observations

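CDK inhibitor genes other than the imprinted Cdkn1c moved in both directions. Cdkn1a, which encodes p21, had 240, 372 and 291 CPM in control replicates 1, 2 and 3 and 784, 964 and 579 with DAC+SFN. In edgeR it rose by 0.60 on the log2 scale with DAC (SE 0.11, adjusted p = 0.0441), 0.96 with SFN (adjusted p = 6.27e-05) and 1.36 with DAC+SFN (adjusted p = 1.91e-06). Cdkn2c, which encodes p18, changed by -0.58 with DAC+SFN (SE 0.08, adjusted p = 0.000163) and by -0.39 for DAC+SFN against SFN (adjusted p = 0.0379). Cdkn1b changed by -0.46 with SFN (adjusted p = 0.000335) and by -0.50 with DAC+SFN (adjusted p = 7.49e-05). Of 4 tested, 1 rose and 2 fell by the adjusted p with DAC+SFN (17.0% and 14.7% of all genes).

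Germline genes that are often silenced by promoter methylation were at or near 0 in every condition. Of 10 listed, Mael, Tex101, Stk31, Magea4, Mageb4 and Prame had 0 counts in all 12 libraries, Dazl, Sycp3 and Taf7l had at most 4, and Ddx4, the only 1 tested, had 15 to 35 counts and a log2 fold change of 0.09 with DAC.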
